A study of Mus musculus with 30 samples.

Results

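Caspase-8, MLKL and 6 partners that decide between apoptosis and necroptosis were followed as 8 genes (Casp8, Fadd, Cflar, Ripk1, Cyld, Ripk3, Zbp1 and Mlkl) in colon RNA of 30 mice. There were 6 genotypes with 5 mice apiece. The genes were chosen by name, as members of the caspase-8 complex and the necrosome, and are 8 of 55487 genes in the table. All 8 passed the filter on low counts that left 15458 genes for testing. Each mouse gave 1 library of 3′ tags, short reads taken next to the end of a transcript.

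The genotypes were WT; Xbp1IEC-KO, called the Xbp1 knockout; Casp8IEC-KO, or Casp8 knockout; their combination, the double knockout; and 2 triple knockouts, in which the double knockout carried TNFR1IEC-KO or MLKLKO in addition. IEC-KO marks a deletion in intestinal epithelial cells, the lining of the gut, while the design text gives Mlkl as a -/- allele with no cell type. By label, both triple knockouts thus carry the epithelial deletions of Xbp1 and Casp8 as well. The level of Xbp1 in whole colon was 51.1 to 65.1 CPM (read counts relative to the library total, after TMM normalisation) in the Xbp1 knockout, 70.4 to 140.0 CPM in the double knockout, 52.2 to 109 CPM in the TNFR1 triple and 62.6 to 88.1 CPM in the MLKL triple knockout, against 76.7 ± 20.8 CPM (mean and SD, n = 5; lowest 52.8) in WT. All 4 genotypes overlapped WT, so these levels do not check the Xbp1 label. No Cre driver, deleted exon, strain or age is given in the sources used here. The tissue was whole colon, in which muscle, immune and nerve cells kept the genes deleted in the epithelium, and in such bulk RNA fewer cells of a type and less RNA per cell cannot be told apart.

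Caspase-8 is the protease that death receptors activate through the adaptor FADD to start apoptosis, and together with the product of Cflar it also cleaves and silences RIPK1 and RIPK3. When caspase-8 is missing or blocked, RIPK1 or the nucleic acid sensor ZBP1 can engage RIPK3, which phosphorylates MLKL. Phosphorylated MLKL breaks the plasma membrane, and the cell dies by necroptosis, releasing its contents. In the gut, caspase-8 is known to protect the epithelium from this form of death.

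The libraries held 3516792.6 to 5823059.7 reads, so that 1 read was worth 0.232 CPM in the median library. Epithelial markers summed to 5820 to 9340 CPM in every library. There were 4 doubted libraries, which stood apart by the level of Casp8 or by interferon response genes. The library labelled Xbp1 knockout replicate 2 had Casp8 at 21.1 CPM, within the range of the libraries labelled as Casp8-deleted. Xbp1 knockout replicate 5, TNFR1 triple knockout replicate 1 and the library labelled MLKL triple knockout replicate 5 had 20 type I interferon response genes summing to 2650, 1750 and 3430 CPM, where the other 27 libraries ranged from 168 to 878 CPM. Values below are given with these libraries, and without them where that changes a result. Since they were doubted partly for levels that go with the genes described, a value without them describes the other libraries only. Sex, called from the data, was uneven, with 1 female in each of WT and the double knockout and 5 females in the MLKL triple knockout.

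Promoter windows of 240 bases, from 250 to 11 bases before the RefSeq transcription start in GRCm38.p6, were matched for 7 of the 8 genes (8 windows, since Ripk1 has 2). Zbp1 had no window in the source used, so its promoter was not searched. The windows of Ripk3 and Mlkl are shown because these genes rose together in the double knockout, and that of Cyld because it held the only NF-kB and the only interferon element match among the 8 windows. They lie at chr14:55788868-55789107 (minus strand) for Ripk3, chr8:111338216-111338455 (minus strand) for Mlkl and chr8:88696778-88697017 (plus strand) for Cyld. Each is printed 5′ to 3′ on the gene's own strand, and capitals mark motif matches on either strand.
Ripk3: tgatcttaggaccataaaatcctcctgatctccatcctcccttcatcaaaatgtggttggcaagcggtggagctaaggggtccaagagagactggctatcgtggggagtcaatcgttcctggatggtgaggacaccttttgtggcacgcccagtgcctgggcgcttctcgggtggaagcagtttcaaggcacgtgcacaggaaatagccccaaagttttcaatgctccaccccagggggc
Mlkl: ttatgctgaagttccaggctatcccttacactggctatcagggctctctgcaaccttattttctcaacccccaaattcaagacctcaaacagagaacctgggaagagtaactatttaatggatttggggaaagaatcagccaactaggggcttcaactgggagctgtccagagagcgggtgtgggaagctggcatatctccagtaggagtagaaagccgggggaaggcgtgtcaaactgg
Cyld: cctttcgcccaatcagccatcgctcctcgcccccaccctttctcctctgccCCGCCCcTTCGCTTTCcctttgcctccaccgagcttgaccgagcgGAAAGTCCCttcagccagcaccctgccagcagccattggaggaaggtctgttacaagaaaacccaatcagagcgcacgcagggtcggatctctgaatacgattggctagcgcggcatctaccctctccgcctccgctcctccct
The motifs searched were the core of an interferon-stimulated response element (GAAANNGAA), a STAT site (TTCNNNGAA), an NF-kB site (GGGACTTTC), an AP-1 site (TGANTCA) and a GC box (GGGCGG), each on both strands. None of these letters occurred in the windows of Ripk3, Mlkl, Casp8 or Cflar. The Cyld window held a GC box from 199 to 194, the interferon element core from 192 to 184 and the NF-kB motif from 154 to 146 bases before the start. Over all 32851 mouse windows of this length, 6.82% held the response element core, 6.77% the STAT motif, 0.283% the NF-kB motif, 6.58% the AP-1 motif and 31.3% the GC box. A match is a description of the letters and no evidence of binding.

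**Figure D1:**
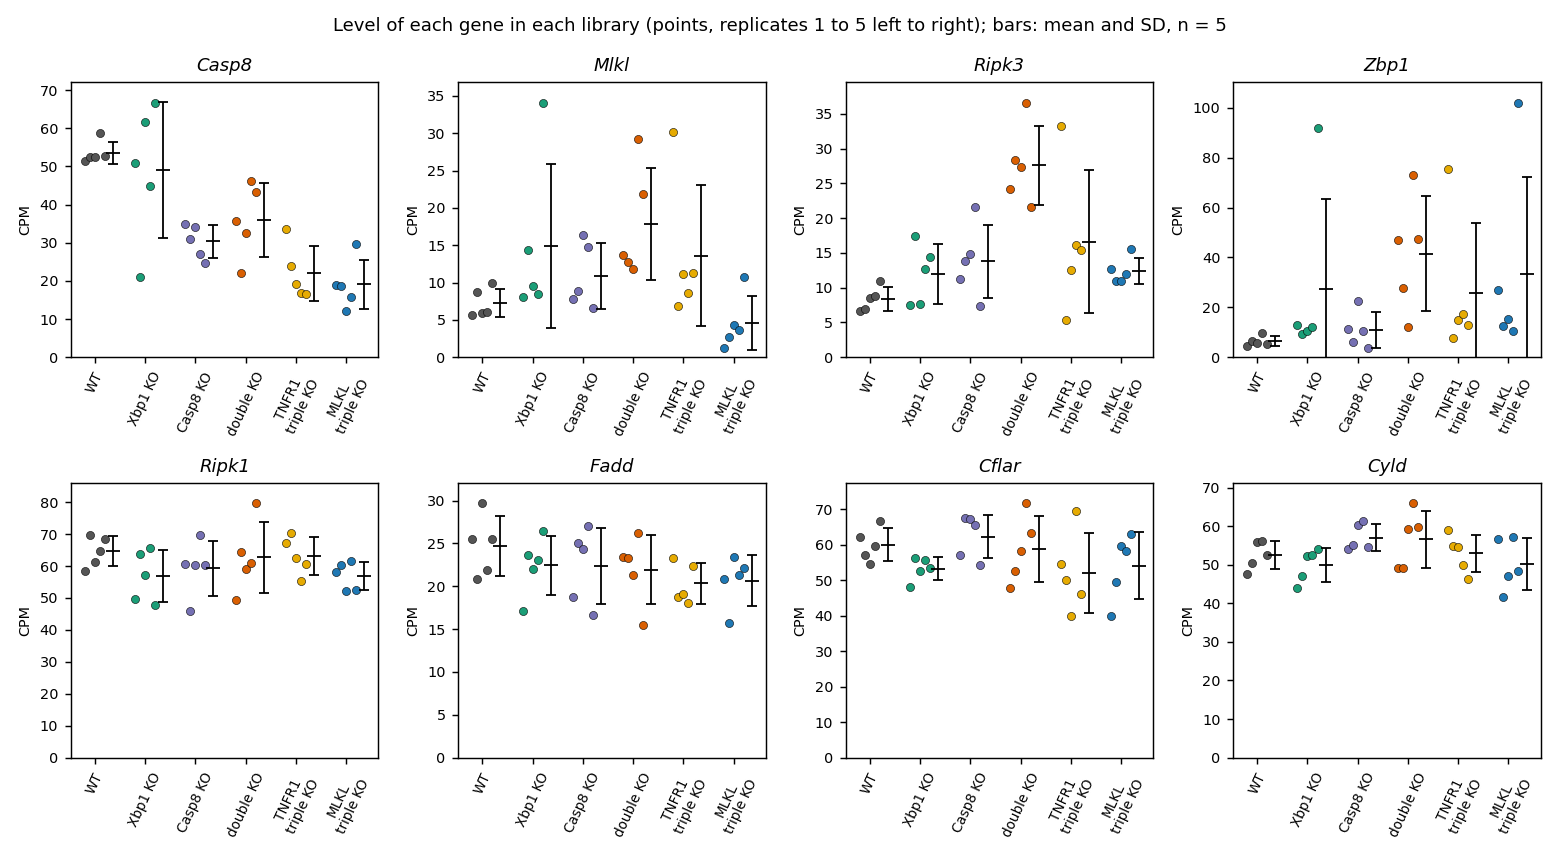
CPM of each of the 8 genes (vertical axes, each from 0) in every library, by genotype (horizontal axis). Points are libraries, replicates 1 to 5 from left to right, and bars give the mean and SD of 5 mice, cut at 0. Casp8 is lower in the 4 Casp8-deleted genotypes, Ripk3 is highest in the double knockout, and single libraries carry the high Zbp1 values of the Xbp1 knockout and the triple knockouts.

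Casp8 (ENSMUSG00000026029, chr1:58795374-58847503, plus strand, GRCm38) is the gene targeted in 4 of the 6 genotypes. Its level in WT replicates 1 to 5 was 51.5, 52.4, 52.4, 58.7 and 52.8 CPM (53.6 ± 2.92, SD, n = 5). In the Casp8 knockout it was 34.8, 31.0, 34.2, 27 and 24.7 CPM, a mean of 56.6% of WT. In the double knockout it was 35.6, 22, 32.5, 46.3 and 43.3 CPM, a mean of 67.1% of WT. Transcript remained in every library of both genotypes, at 22 CPM or more, and whether it came from cells that kept the gene or from tags beyond the deleted exons was not tested. The TNFR1 triple knockout had 33.6, 23.9, 19.1, 16.8 and 16.5 CPM, and the MLKL triple knockout had 19, 18.7, 12.2, 15.9 and 29.6 CPM, means of 41.0% and 35.6% of WT. All 5 libraries of each of these 4 genotypes lay below all 5 WT libraries. Over all genes tested, the share with such non-overlapping groups against WT was 5.32% for the Casp8 knockout, 13.2% for the double, 4.77% for the TNFR1 triple and 4.48% for the MLKL triple.

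An exact two-sided permutation test of Casp8 against WT gave p = 0.00794 in each of the 4 genotypes, the smallest p that 252 splits allow (adjusted over 5 tests, 0.00992). In the fit over all genes, Casp8 was lower than WT in the TNFR1 triple knockout by a log2 fold change of -1.29 ± 0.235 (SE; adjusted p = 0.00345). In the MLKL triple knockout the difference was -1.49 ± 0.238 (adjusted p = 0.00147). It was the only one of the 8 genes called in either comparison, where 2.12% and 0.854% of all genes passed and 0.957% and 0.511% were lower. The same fit gave -0.82 ± 0.231 in the Casp8 knockout (adjusted p = 0.0678) and -0.58 ± 0.227 in the double knockout (adjusted p = 0.0679), and neither passed the threshold of 0.05. With only the groups compared in the fit, both passed (adjusted p = 0.00134 and 0.016), and so they did when the 4 doubted libraries, none of them in these groups, were left out of the shared spread (0.00503 and 0.0057; a fit added after seeing the data). In the Casp8 knockout it also passed with no low-count filter (0.027), with voom (0.0231) and with DESeq2 (0.029), and in the double knockout without its replicate 4 (0.0472).

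The genotypes that share the Casp8 deletion were not at 1 level. Casp8 was lower in the MLKL triple knockout than in the double knockout by -0.91 ± 0.239 (adjusted p = 0.0162), although 1 library of each group overlapped the other, and the call ended without double knockout replicate 4 (0.0587) or MLKL triple knockout replicate 3 (0.0584). Against the double knockout, the TNFR1 triple knockout gave -0.71 ± 0.236 (adjusted p = 0.0998), which passed without the 4 doubted libraries (-0.91, adjusted p = 0.00195), without TNFR1 triple knockout replicate 1 alone (0.0226) and without double knockout replicate 2 (0.0368). The Casp8 knockout and the double knockout did not differ by the test (double knockout 0.24 ± 0.233 higher on the log2 scale, adjusted p = 0.493). In the Xbp1 knockout, whose epithelium keeps Casp8 by label, the values were 50.9, 21.1, 61.7, 45 and 66.7 CPM, of which only replicate 2 lay far from WT. The double knockout differed from the Xbp1 knockout by -0.45 ± 0.227 (adjusted p = 0.214), by -0.56 (adjusted p = 0.0376) without the doubted libraries and by -0.65 (0.0391) without Xbp1 knockout replicate 2 alone. That replicate was doubted for its Casp8 level itself. The last 2 adjusted p thus follow in part from leaving it out, and describe the other libraries only.

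Fadd (ENSMUSG00000031077, chr7:144577318-144582463), the adaptor that brings caspase-8 to death receptors, ranged from 20.9 to 29.7 CPM in WT and from 15.5 to 27 CPM in the 25 other libraries. Its genotype means ran from 24.7 ± 3.48 CPM in WT to 20.3 ± 2.39 CPM in the TNFR1 triple knockout. Cflar (ENSMUSG00000026031, chr1:58711508-58758884) encodes cFLIP, the catalytically inactive partner that sets what caspase-8 cleaves, and lies upstream of Casp8 on the same strand. Its means were 60.0 ± 4.65 CPM in WT, 53.2 ± 3.27 with Xbp1 deleted, 62.2 ± 6.17 with Casp8 deleted and 58.7 ± 9.32 with both. The TNFR1 triple knockout had 52.0 ± 11.2 and the MLKL triple knockout 54.1 ± 9.35 CPM. Every genotype overlapped WT for both genes.

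Ripk1 (ENSMUSG00000021408, chr13:34002363-34037147) encodes the kinase and scaffold through which TNFR1 reaches either caspase-8 or RIPK3. It was 58.5, 69.7, 61.4, 64.8 and 68.4 CPM in WT and 49.4, 64.4, 59.2, 60.8 and 79.7 CPM in the double knockout, with overlapping ranges. Over all 30 libraries it ran from 45.8 to 79.7 CPM. Serpinb6a, on the opposite strand, overlaps its 5′ end, and no strand setting of the counting is given in the sources used here. Cyld (ENSMUSG00000036712, chr8:88697028-88751945) encodes the deubiquitinase that removes ubiquitin chains from RIPK1. It ranged from 47.5 to 56.1 CPM in WT and from 41.7 to 66.0 CPM elsewhere, and its mean was highest in the Casp8 knockout, at 57.1 ± 3.42 CPM.

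Taken as 4 genes, Fadd, Cflar, Ripk1 and Cyld passed in 0 of 44 edgeR tests (11 comparisons each). These 4 are the members with no call, so that count follows from how they were grouped. Of all genes, 0.0841% (Xbp1 knockout against WT) to 21.3% (double knockout against WT) passed in these comparisons. Their log2 fold changes lay between -0.28 and 0.26, the smallest adjusted p was 0.262, and 0 tests had an unadjusted p under 0.05. Each of the 4 had at least 88 reads in every WT library, and the largest SE of a log2 fold change among them was 0.21. Differences well above that error could also be missed. In the same fit Casp8 at -0.82 ± 0.231 in the Casp8 knockout against WT did not pass (adjusted p = 0.0678). The same 0 of 11 was obtained for each of the 4 genes with every other tool and setting tried for the count of calls.

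Ripk3 (ENSMUSG00000022221, chr14:55784995-55788865) encodes the kinase that phosphorylates MLKL. WT had 6.6, 6.87, 8.51, 8.85 and 10.9 CPM (8.35 ± 1.74), and the double knockout had 24.2, 28.4, 27.3, 36.6 and 21.6 CPM (27.6 ± 5.68). All 5 double knockout libraries lay above all WT libraries, in a comparison where 13.2% of all genes had groups without overlap. They also lay above every library of the other genotypes except TNFR1 triple knockout replicate 1, with Casp8 knockout replicate 4 within rounding of the lowest. The difference from WT was 3.30-fold, a log2 fold change of 1.72 ± 0.302 (adjusted p = 0.000155). Single knockouts were lower: the Xbp1 knockout had 7.55, 17.4, 7.66, 12.7 and 14.4 CPM, and the Casp8 knockout 11.2, 13.8, 14.9, 21.6 and 7.4 CPM. Both genotypes lay between WT and the double knockout and overlapped WT; against WT neither passed (adjusted p = 0.507 and 0.255).

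The double knockout exceeded each single knockout without overlap, although its replicate 5 and Casp8 knockout replicate 4 both rounded to 21.6 CPM. Ripk3 was higher than in the Xbp1 knockout by 1.21 ± 0.29 (adjusted p = 0.00884) and than in the Casp8 knockout by 0.99 ± 0.289 (adjusted p = 0.0159). The latter call ended without Casp8 knockout replicate 5 (0.0578) or double knockout replicate 4 (0.0501). Ripk3 was the only one of the 8 genes called in these 2 comparisons, in which 8.64% and 18.4% of all genes passed and 4.77% and 9.68% were higher. Groups without overlap made up 6.18% and 8.67% of all genes. The Xbp1 by Casp8 interaction, which asks whether the double knockout differs from the sum of the single ones, was 0.47 ± 0.429 for Ripk3 (adjusted p = 0.598), and 0 of the 8 genes passed it (1.38% of all genes).

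Removing Mlkl went with a lower level of Ripk3. The MLKL triple knockout had 12.7, 11, 11, 11.9 and 15.5 CPM (12.4 ± 1.88), all below the lowest double knockout library. The log2 fold change between them was -1.15 ± 0.289 (adjusted p = 0.0124). All 5 MLKL triple knockout libraries lay above all WT libraries, with a difference of 0.57 that did not pass (adjusted p = 0.394). Groups without overlap made up 4.48% of all genes there. The TNFR1 triple knockout was the most varied, at 33.3, 5.4, 12.6, 16.2 and 15.4 CPM. Its replicate 1 sat within the double knockout range and replicate 2 below every WT library. Its difference from WT, 0.99 (adjusted p = 0.0801), passed without that replicate 2 (0.017), with no low-count filter (0.0412) and with DESeq2 (0.0378). Against the double knockout the value was -0.73 ± 0.282 (adjusted p = 0.15), or -1.14 (adjusted p = 0.00594) without the doubted libraries, of which replicate 1 is one. The difference in Ripk3 between the TNFR1 and MLKL triple knockouts was 0.41 and did not pass (adjusted p = 0.727).

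Zbp1 (ENSMUSG00000027514, chr2:173206612-173218923) encodes the sensor of Z-form nucleic acids that can bind RIPK3 directly, and it is itself induced by interferon. WT had 4.62, 6.4, 5.75, 9.79 and 5.2 CPM, and the double knockout had 47.1, 27.9, 12.2, 73.0 and 47.4 CPM. The groups did not overlap, as for 13.2% of all genes. The log2 fold change of 2.70 ± 0.73 (adjusted p = 0.00827) was the largest among the 8 genes in that comparison. Within the double knockout the values spanned a range from 12.2 to 73.0 CPM. The Xbp1 knockout had 12.9, 9.5, 10.6, 12 and 91.7 CPM. The TNFR1 triple knockout had 75.6, 7.51, 14.9, 17.2 and 13.1 CPM, and the MLKL triple knockout 27, 12.6, 15.3, 10.6 and 102 CPM. In each of these 3 genotypes 1 library lay far above the other 4, and it was the doubted library with high interferon genes.

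Zbp1 did not pass against WT in those 3 genotypes, at 2.10 ± 0.739 (adjusted p = 0.204), 2.00 ± 0.742 (0.145) and 2.39 ± 0.735 (0.111). All 5 MLKL triple knockout libraries lay above all WT libraries, in a comparison where 4.48% of all genes had groups without overlap. That difference passed with no low-count filter (0.0237), with only the groups compared (0.0422) and with DESeq2 (0.0386). Without the doubted libraries the means fell to 11.8 ± 1.19 (n = 3), 13.2 ± 4.13 and 16.4 ± 7.35 CPM (n = 4), still above the WT mean of 6.35 ± 2.03 CPM. The double knockout was then higher than the Xbp1 knockout by 1.80 (adjusted p = 0.00901), and the triple knockouts were lower than the double knockout by -1.64 (TNFR1, 0.0106) and -1.35 (MLKL, 0.0228). With all libraries the same comparisons gave 0.60 (0.598), -0.70 (0.601) and -0.31 (0.824). Zbp1 was thus called between the double and the triple knockouts only without the doubted libraries. Since 3 of these were doubted for interferon response genes, with which Zbp1 rose, the values without them describe the other libraries only. In the Casp8 knockout Zbp1 was 11.5, 6.25, 22.5, 10.7 and 3.84 CPM, and the double knockout was higher by 1.90 ± 0.689 (adjusted p = 0.0515), which passed without Casp8 knockout replicate 3 (0.0367) or double knockout replicate 2 (0.0498) or 3 (0.0286).

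Mlkl (ENSMUSG00000012519, chr8:111311797-111338177) encodes the pore-forming effector and is deleted in the MLKL triple knockout. There it was 1.3, 2.76, 4.38, 3.59 and 10.7 CPM. WT had 5.72, 8.77, 5.98, 6.06 and 9.88 CPM, so replicates 1 to 4 of the knockout lay below every WT library and replicate 5, a doubted library, lay above every one. The Mlkl level of replicate 5 thus goes against its label; the genotype of that mouse was not tested, and it is used as labelled. The difference from WT was -0.68 ± 0.485 (adjusted p = 0.535), and the exact permutation test gave p = 0.175. Without replicate 5 alone it was -1.25 (adjusted p = 0.246), and without all 4 doubted libraries the knockout mean was 3.01 ± 1.32 CPM (n = 4). Reads were few, with 26 at the least in a WT library, and tags at the 3′ end of a deleted gene need not be absent.

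The double knockout had 13.7, 12.8, 11.8, 29.2 and 21.9 CPM of Mlkl (17.9 ± 7.49), all above WT. Groups without overlap made up 13.2% of all genes there. The log2 fold change was 1.29 ± 0.43 (adjusted p = 0.03). This call ended without double knockout replicate 4 (1.04, adjusted p = 0.108) or 5 (0.0607), or without WT replicate 1 (0.068), 3 (0.0635) or 4 (0.0645). Against the double knockout, Mlkl in the MLKL triple knockout was lower by -1.97 ± 0.454 (adjusted p = 0.00669), without overlap. The Xbp1 knockout had 8.04, 14.4, 9.53, 8.48 and 34.1 CPM of Mlkl, the Casp8 knockout 7.77, 8.86, 16.4, 14.8 and 6.58 CPM, and the TNFR1 triple knockout 30.2, 6.8, 11.1, 8.6 and 11.3 CPM. In the first and last of these, 1 doubted library lay far above the other 4. Against WT they did not pass (adjusted p = 0.291, 0.549 and 0.281). With all libraries the double knockout was above the Xbp1 knockout by 0.25 (adjusted p = 0.742). The TNFR1 triple knockout was above the MLKL triple knockout by 1.57 (adjusted p = 0.183). Without the doubted libraries these differences were 1.02 (adjusted p = 0.0387) and 1.64 (adjusted p = 0.0338). Since the doubted libraries include those with high Mlkl in these genotypes, the last 2 values describe the other libraries only.

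**Figure D2:**
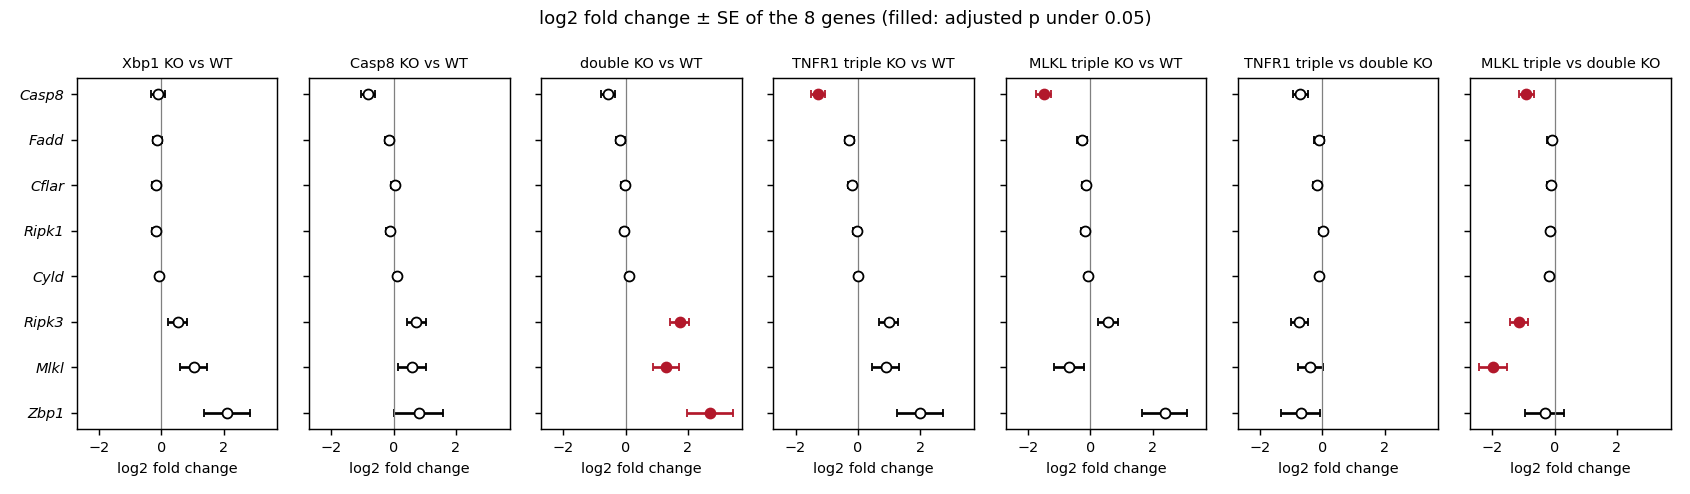
log2 fold change with its SE (horizontal axes) of each gene (vertical axis) in 7 comparisons. Filled points have an adjusted p under 0.05. Ripk3, Mlkl and Zbp1 are filled in the double knockout against WT, while Fadd, Cflar, Ripk1 and Cyld stay near 0 in every panel.

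Counted over the 8 genes, 3 were higher and 0 lower in the double knockout than in WT, where 21.3% of all genes passed and 11.1% were higher. Casp8, Ripk3, Zbp1 and Mlkl had non-overlapping groups here, as did 13.2% of all genes. In the MLKL triple knockout against the double knockout 3 were lower (Casp8, Ripk3 and Mlkl), of which 2 are deleted genes. In that comparison 7.65% of all genes passed, 4.21% were lower and 5.01% had groups without overlap, as Ripk3 and Mlkl did. No gene of the 8 was called in the Xbp1 knockout (0.0841% of all genes passed) or the Casp8 knockout (1.17%) against WT. The same held for the TNFR1 triple knockout against the double knockout (2.35%) and against the MLKL triple knockout (0.259%). These comparisons share the double knockout and WT libraries, so their values are set side by side only. The median log2 fold change of the 8 genes in the double knockout against WT was 0.04, and that of all genes was 0.01.

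**Figure D3:**
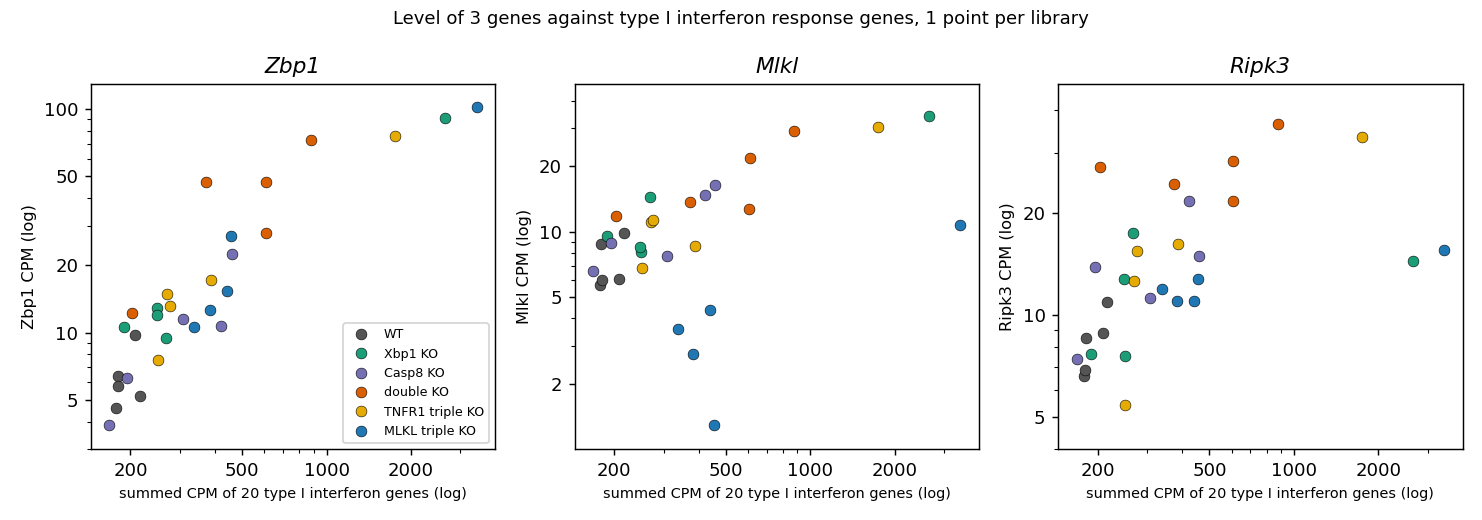
CPM of Zbp1, Mlkl and Ripk3 (vertical log axes) against the summed CPM of 20 type I interferon response genes (horizontal log axis), 1 point per library, coloured by genotype. Zbp1 rises along the whole range of the sum, and Mlkl does so outside the MLKL triple knockout. Within that genotype replicate 5 has both the highest sum and the highest Mlkl (10.7 CPM), and replicates 1 to 4 have 1.3 to 4.38 CPM. The double knockout libraries have high Ripk3 at interferon sums as low as 203 CPM.

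The 3 genes followed interferon response genes to different degrees. Zbp1 reached 91.7, 75.6 and 102 CPM in the 3 libraries with the highest type I sums. In the double knockout the sums were 373, 607, 203, 878 and 609 CPM, against 178 to 216 CPM in WT, and replicate 3, with the lowest sum, also had the lowest Zbp1 and Mlkl of that genotype. Its Ripk3, 27.3 CPM, was the median of the genotype. Ripk3 in Xbp1 knockout replicate 5 was 14.4 CPM and in the library labelled MLKL triple knockout replicate 5 was 15.5 CPM, at type I sums of 2650 and 3430 CPM. The latter value was the highest of its genotype. In TNFR1 triple knockout replicate 1, at a sum of 1750 CPM, Ripk3 was 33.3 CPM, where the rest of that genotype had 5.4 to 16.2 CPM. Interferon gamma response genes summed to 1190 to 4780 CPM in the double knockout and 521 to 933 CPM in WT, without overlap, and all 20 of them passed as higher. Whether interferon plays a part in the levels of the 3 genes was not tested.

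Cell type markers also differed between these genotypes, in bulk RNA that does not give cell numbers. In the double knockout against WT, 7 of 10 epithelial, 7 of 10 monocyte and macrophage and 5 of 6 plasma cell markers were higher. So were 5 of 5 tested T and NK cell and 3 of 3 tested neutrophil markers. Of B cell markers 0 of 7 tested passed. Lower were 7 of 7 smooth muscle, 4 of 6 fibroblast and 3 of 6 tested enteric neuron and glia markers. Of all genes 21.3% passed in that comparison and 11.1% were higher. Monocyte and macrophage markers summed to 293 to 720 CPM in the double knockout and 206 to 370 CPM in WT. Smooth muscle markers summed to 2880 to 4410 CPM in the double knockout and 5790 to 8120 CPM in WT. Of the 8 neutrophil markers 3 were at 0 in every WT library. In the MLKL triple knockout against the double knockout, 4 of 7 smooth muscle markers were higher and 3 of 10 monocyte and macrophage markers lower. Of all genes 7.65% passed there and 4.21% were lower. The part of these cell types in the levels of Ripk3, Zbp1 and Mlkl was not tested.

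**Figure D4:**
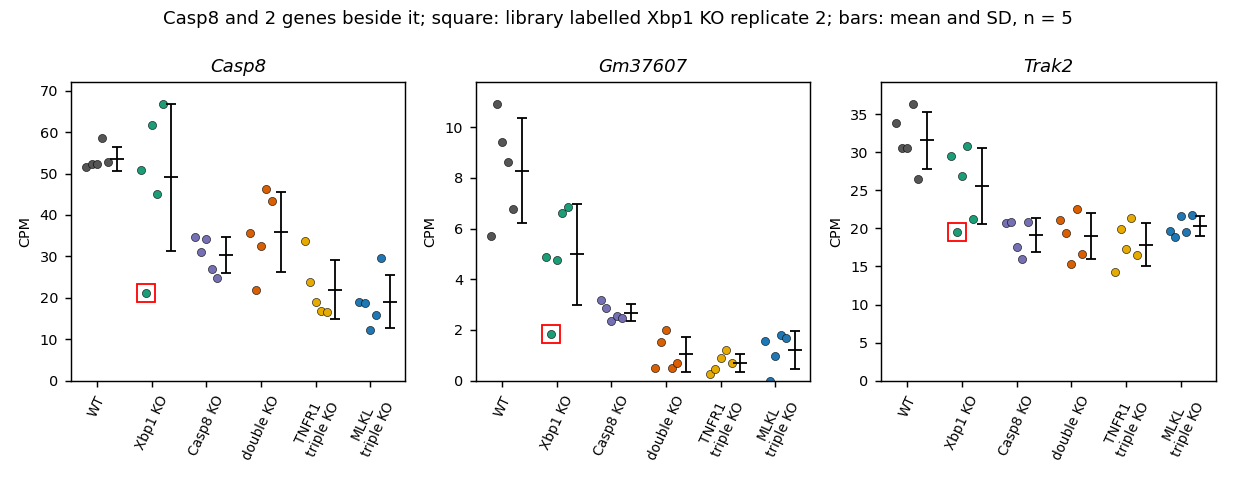
CPM of Casp8 and of 2 genes within 1 Mb of it (vertical axes from 0) in every library by genotype, with mean and SD of 5 mice. Squares mark the library labelled Xbp1 knockout replicate 2, which lies within the range of the Casp8-deleted libraries in all 3 panels. So do Xbp1 knockout replicate 4 for Casp8 (45.0 CPM) and replicate 5 for Trak2 (21.3 CPM).

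Genes beside Casp8 on chromosome 1 were also low in the Casp8-deleted genotypes. Of 27 other genes tested within 1 Mb of Casp8, 3 were lower in the Casp8 knockout than in WT (11.1%, against 0.537% of all genes). In the TNFR1 triple knockout 4 were lower (14.8%, against 0.957%) and in the MLKL triple knockout 3 (11.1%, against 0.511%). The double knockout had 7 lower and 2 higher, 33.3% against the 21.3% of all genes called there, and the Xbp1 knockout 0. Gm37607 (chr1:58383512-58386134), a gene model with no known function, had means of 8.29 ± 2.07 CPM in WT and 2.68 ± 0.328 CPM in the Casp8 knockout, and of 1.04, 0.696 and 1.21 CPM in the double, TNFR1 triple and MLKL triple knockouts. Its log2 fold changes against WT were -1.62 (adjusted p = 0.0208), -2.98 (1.24e-05), -3.49 (3.59e-05) and -2.79 (0.000539) in that order, and the first ended without any 1 of 4 libraries (up to 0.0672).

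Trak2 (chr1:58900449-58973430), which encodes an adaptor for mitochondrial transport, fell from 31.6 ± 3.73 CPM in WT to 19.2 ± 2.26 CPM in the Casp8 knockout (-0.72, adjusted p = 0.0061). Its means in the other 3 Casp8-deleted genotypes were 19, 17.9 and 20.3 CPM. The call of Trak2 in the MLKL triple knockout ended in 6 of 19 other settings: with sex as a term (0.312), and without replicate 2 or 3 of that genotype or without WT replicate 1, 2 or 4 (up to 0.064). Gm37760 (chr1:58797783-58801623), an unclassified gene model inside Casp8 and named after its values were seen, was higher in the double knockout than in WT (0.43, adjusted p = 0.0397) and did not pass in the other Casp8-deleted genotypes. Near Mlkl on chromosome 8, 0 of 29 genes tested within 1 Mb were called in the MLKL triple knockout against WT. Of the 29, 3 were called in the double knockout against WT (10.3%, below the 21.3% of all genes), among them Fa2h, which encodes a fatty acid hydroxylase, which was higher (0.86, adjusted p = 0.000488), and Mtss1l, which was lower (-0.89, 8.68e-05). The cause of the differences near Casp8 was not tested.

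The library labelled Xbp1 knockout replicate 2 fell with the deleted group at this locus. Its Casp8, 21.1 CPM, lay below the 9 other libraries labelled as Casp8-intact (45 to 66.7 CPM) and within the 20 deleted ones (12.2 to 46.3 CPM). Its Gm37607, 1.85 CPM, lay below the same 9 (4.76 to 10.9 CPM) and within the deleted ones (0 to 3.17 CPM). In all it was below the 9 others in 7 of 27 neighbours (25.9%), against 12.2% of all genes tested. The genotype of that mouse was not tested, and the label is used as given.

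Of 58 further genes of the pathway, 57 were tested; Fasl, with 4 reads at the most in a library, was not. In the double knockout 15 were higher and 1 lower than in WT, 28.1% against 21.3% of all genes. Of all genes, 11.1% were higher there. Upstream ligands, receptors and sensors had 5 of 12 higher (median log2 fold change 0.42), the RIPK1 ubiquitin and kinase checkpoint 4 of 21 (0.16), apoptosis genes downstream of caspase-8 had 4 of 10 (0.45), and necrosome regulators and membrane repair genes 2 higher and 1 lower of 14 (0.08), where the median of all genes was 0.01. Tnf, the TNFR1 ligand, was 0 to 1.56 CPM in WT and 12.1, 6.9, 5.98, 26 and 17.1 CPM in the double knockout (4.51 ± 0.895, adjusted p = 0.000577). It was at most 2.18 CPM in the MLKL triple knockout, lower than in the double knockout by -3.90 ± 0.833 (adjusted p = 0.00373). WT levels of Tnf are within a few reads of 0, so the fold is imprecise.

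Tnfsf10, the ligand TRAIL, rose in the double knockout by 1.61 ± 0.458 (adjusted p = 0.0118), a call that ended without double knockout replicate 4 (0.0632). Tnfrsf1a, which encodes TNFR1, rose by 0.45 ± 0.129 (0.0122). Among checkpoint genes, Birc3, a ubiquitin ligase of RIPK1, rose by 0.75 ± 0.168 (0.00177), Rbck1, a subunit of the linear ubiquitin ligase, by 0.35 ± 0.099 (0.0112) and Mapkapk2, a kinase that phosphorylates RIPK1, by 0.29 ± 0.097 (0.0321). Bak1, which permeabilises mitochondria, rose by 0.63 ± 0.165 (0.0066). Of the membrane repair genes Chmp4b, an ESCRT-III subunit, rose by 0.48 ± 0.127 (0.00694) and Chmp2a by 0.34 ± 0.119 (0.0419), while Mertk, a receptor for dying cells, fell by 0.55 ± 0.148 (0.00768). The calls of Mapkapk2 and Chmp2a ended in 7 and 9 of 19 other settings. All of these rises and the fall are log2 fold changes in the double knockout against WT with adjusted p in parentheses.

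The other comparisons changed fewer pathway genes. In the MLKL triple knockout against the double knockout 6 of 57 were lower and 0 higher (10.5%, against 7.65% of all genes called and 4.21% lower). Among them was Bak1 (-0.55, adjusted p = 0.0356, a call that ended in 8 of 19 other settings). The count was 2 without double knockout replicate 4, and 2 to 7 over the libraries left out. In the TNFR1 triple knockout against the double knockout 2 of 57 were lower (3.51%, against 2.35%), among them Tnfrsf1a (-0.68, adjusted p = 0.00557; 0.0871 with only the groups compared), the gene targeted there. That count was 8 without TNFR1 triple knockout replicate 1, and 1 to 8 over the libraries left out. The double knockout had 7 higher against the Xbp1 knockout (12.3%, against 8.64%) and 10 higher and 2 lower against the Casp8 knockout (21.1%, against 18.4%). Of all genes, 4.77% and 9.68% were higher in these 2 comparisons. The shares in either direction were above those of all genes, and whether they differ was not tested. The Casp8 knockout against WT had 2 lower (3.51%, against 1.17% of all genes called and 0.537% lower), which became 0 or 1 without any 1 library. The MLKL triple knockout against WT had 1 lower, Axl. The Xbp1 knockout and the TNFR1 triple knockout had 0 against WT. Of 43 calls on the pathway genes named by the rule, 19 passed under every setting tried.

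Genes with the pattern most like each member, by Pearson r of log2 CPM over the 30 libraries, are a description, since the libraries share genotypes. For Zbp1 they were Parp9 (r = 0.945, Spearman rho 0.898), Gm45193 (0.938, 0.841) and Oas3 (0.923, 0.909), and Parp9 without the 4 doubted libraries gave r = 0.901 (n = 26). For Ripk3 they included Tnip3 (0.889, 0.872) and Metrnl (0.880, 0.835). For Mlkl they were Ccl8 (0.806, 0.767), Csf2rb (0.771, 0.832) and Lpin2 (0.769, 0.827). For Casp8 they included Lama4 (0.715, 0.704) and the chromosome 1 neighbour Mpp4 (0.690, 0.682).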

How the data were processed

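Colon RNA of 30 mice was made into 3′ tag libraries, per the labels' protocols. The authors deposited estimated counts of reads per Ensembl gene, of which 11.2% of the non-zero values are not whole; the build was GRCm38 and the tools included R 4.0.0, cutadapt 3.2, featureCounts 2.01 and Subread, per the submitters' processing notes. No strand setting, annotation release or way of dividing reads is given in the sources used here. No molecular identifiers are named there, so reads can hold PCR copies. Of 55579 features, 92 spike-ins with 0 reads were left out, and 55141 of 55487 identifiers were matched to symbols (the rest held 0.019% of reads).

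Counts were rounded, filtered with filterByExpr and tested in 1 fit of all libraries with a coefficient per genotype (R 4.3.3, edgeR 4.0.16, TMM, quasi-likelihood F test), with Benjamini-Hochberg adjustment over 15458 genes and a threshold of 0.05. Single values were tested with exact permutation tests. The scripts were tested on simulated data. CPM are TMM-scaled and given as mean ± SD. Since a 3′ tag protocol counts 1 end per transcript, no length correction was made. Each library came from its own mouse, per the labels' protocols, and no pair of libraries differed by less than 3.24 times the Poisson spread.

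The 8 genes, the gene lists, the tests and the rules were chosen with earlier results of these data known. Named besides the 8 were up to 3 genes of smallest p per pathway list and comparison among those that passed, up to 3 passing genes within 1 Mb of Casp8 and of Mlkl, and the 3 genes most correlated with each called member (Gm37760 was added later); interferon genes and markers of 10 cell types were used as counts and sums. Some genes that the rule names are not reported here. Alternatives were DESeq2 1.42.0 and its size factors, limma 3.58.1 voom with quality weights, no filter, a stricter one (1 CPM in 5 libraries), only the groups compared, sex as a term, the replicate number as a block, each library left out, and no doubted libraries; with the last, a fit of the other 26 was added after seeing the data. The interferon and NF-kB motifs were first searched with 1 letter more, which matched no window and the Cyld window, and were then shortened.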

Additional observations from a re-analysis of the deposited data

Results flagged for a closer look

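In 6 of 48 groups of 5 libraries, 1 for each gene and genotype, 1 library lay so far from the nearest of the others that the gap was over 0.71 of the group's range; chance alone marks about 1 in 20 groups. WT replicate 4 had Casp8 at 58.7 CPM, where the other 4 had 51.5 to 52.8 CPM, a small difference beside the drop in the Casp8-deleted genotypes. Mlkl was 34.1 CPM in Xbp1 knockout replicate 5 (others 8.04 to 14.4 CPM) and 30.2 CPM in TNFR1 triple knockout replicate 1 (others 6.8 to 11.3 CPM). Zbp1 was 91.7 CPM in Xbp1 knockout replicate 5 (others 9.5 to 12.9 CPM), 75.6 CPM in TNFR1 triple knockout replicate 1 (others 7.51 to 17.2 CPM) and 102 CPM in the library labelled MLKL triple knockout replicate 5 (others 10.6 to 27 CPM). The same 3 libraries stood apart by the summed type I interferon genes, at 2650 CPM (others 189 to 268), 1750 CPM (others 251 to 387) and 3430 CPM (others 338 to 455).

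For 2 pathway genes the effect of the Xbp1 deletion differed between Casp8-deleted and Casp8-intact mice by the interaction term. Tnfrsf1a had an interaction of 0.70 on the log2 scale (adjusted p = 0.0493), a call that ended in 22 of 29 other settings. Vps4b, an ATPase that takes ESCRT-III apart, had 0.38 (adjusted p = 0.0469), a call that likewise ended in 22 of 29.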

How the results depend on the processing

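Over the 8 genes and 11 comparisons, the count of calls moved as follows. In the Casp8 knockout against WT it rose from 0 to 1 with no low-count filter, with only the groups compared, with voom, with DESeq2 and in the fit of the 26 other libraries. In the double knockout against WT it was 4 rather than 3 with only the groups compared and in the fit of 26, and in the MLKL triple against the double knockout 4 rather than 3 without the doubted libraries. In the TNFR1 triple knockout against WT it was 2 rather than 1 with no filter and with DESeq2, and in the MLKL triple knockout against WT 2 rather than 1 with no filter, only the groups compared and DESeq2. In the double knockout it was 4 rather than 1 against the Xbp1 knockout without the 4 doubted libraries, and against the Casp8 knockout 2 rather than 1 with no filter, only the groups compared, voom, DESeq2, sex as a term and the fit of 26. In the TNFR1 triple knockout against the double knockout it was 1 with voom and 3 without the doubted libraries, against 0, and against the MLKL triple knockout 1 with no filter and without the doubted libraries, against 0. The causes of these changes were not tested. Leaving out each library, the double knockout had 2 to 3 calls against WT, 1 to 2 against the Xbp1 knockout and 0 to 2 against the Casp8 knockout. The TNFR1 triple had 1 to 2 against WT, 0 to 2 against the double and 0 to 1 against the MLKL triple knockout, which had 2 to 3 against the double knockout.

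Directions turned only for values near 0 that did not pass. The interaction of Mlkl, -0.34, became 0.081 with voom and 0.081 with sex as a term, and 0.432 without the doubted libraries (-0.588 to 0.215 with each library left out). That of Zbp1, -0.20, became 0.628 with voom, 0.596 with sex as a term and 1.005 without the doubted libraries (-0.504 to 1.076). With each library left out, Casp8 in the Xbp1 knockout against WT ran from -0.261 to 0.067, and between the triple knockouts Casp8 ran from -0.001 to 0.41 and Zbp1 from -1.33 to 0.651. The Ripk3 call in the double knockout against WT held in all of these settings (adjusted p 0.000261 to 0.000866 with a library left out), as did that of Zbp1 (0.00472 to 0.0277).

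Same-numbered libraries did not deviate together (median r 0.00102 over 75 pairs, against -0.00902 for other pairs; 5 of 30 libraries correlated best with their own number), so the replicate block has no support in the design. With the replicate block the count of the 8 genes called changed in 0 comparisons, the interaction of Zbp1 became 0.027, and 3132 rather than 3291 of all genes passed in the double knockout against WT and 73 rather than 213 in the interaction. Over the other settings that keep all libraries or drop the doubted ones, genes called against WT were 8 to 424 for the Xbp1 knockout (13 in the fit reported), 101 to 505 for the Casp8 knockout (181), 74 to 836 for the TNFR1 triple (327) and 11 to 350 for the MLKL triple knockout (132). Against the double knockout, 21 to 989 were called for the TNFR1 triple (363) and 490 to 1382 for the MLKL triple knockout (1182). For the double knockout the ranges were 797 to 1551 against the Xbp1 knockout (1335) and 1570 to 3012 against the Casp8 knockout (2842), between the triple knockouts 19 to 86 (40), and in the interaction 55 to 475 (213). With each library left out, the counts against WT were 2 to 14 for the Xbp1 knockout, 88 to 188 for the Casp8 knockout, 77 to 507 for the TNFR1 triple and 9 to 131 for the MLKL triple knockout. Against the double knockout they were 748 to 1681 for the Xbp1 knockout, 2002 to 3243 for the Casp8 knockout, 63 to 931 for the TNFR1 triple and 720 to 1331 for the MLKL triple knockout. They were 20 to 54 between the triple knockouts and 41 to 465 in the interaction.

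Mlkl, Ripk3 and Zbp1 had 26, 29 and 20 reads at the least in a WT library, and Fasl was too low to test. The MLKL triple knockout had no male and WT had 1 female, so sex and genotype cannot be told apart in the former.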
